A study of Homo sapiens with 6 samples.

Results

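ATP-binding cassette (ABC) transporter genes were taken as all genes whose symbol is ABC, a subfamily letter from A to G and a number, and 43 of the 18417 genes measured fitted this rule. All but 1 of the 43 are protein-coding, and ABCC13 is a transcribed pseudogene. The samples were cultures of MDA-MB-231, a long-used human line of triple negative breast cancer grown in DMEM with serum, with 3 untreated controls and 3 cultures exposed to EC-70124, an indolocarbazole that inhibits several kinases, at 500 nM for 24 h. The cells were of 1 line at 1 dose and 1 time, so that neither other lines nor the course of a change could be followed. Each sample gave 1 Affymetrix Human Gene ST array, and values are intensities on a linear scale, 1 probe set per gene. A log2 change is the difference of mean log2 intensity, EC-70124 minus control, given with its standard error (SE) from limma, and up-regulated or down-regulated means an adjusted p under 0.05 over all genes. No background measure is part of the values. In the control arrays 24 of the 43 members had a mean intensity below 447, the middle of the array medians.

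ABC proteins bind and split ATP with a conserved nucleotide-binding domain. Most are membrane pumps that move lipids, drugs, bile acids, peptides or conjugates across a membrane. A few serve other ends, since ABCC8 and ABCC9 are regulatory subunits of ATP-sensitive potassium channels, and ABCE1 and the ABCF proteins have no membrane domain and act on ribosomes. In tumor cells the family is best known for multidrug resistance, through ABCB1 (P-glycoprotein), ABCC1 (MRP1) and ABCG2 (BCRP). The comparison addresses which of these genes changed their transcript level under the inhibitor.

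EC-70124 replicate 3 was often the treated array farthest from the middle one. This held for 27 of the 43 members (62.8%), beside 50.5% of all genes. Among the 16 members that passed the threshold it held for 15 (93.8%), beside 59.7% of all genes that passed. Without EC-70124 replicate 3, all 16 members still passed, and ABCE1 and ABCG2 passed as well. As a check of the line, the intensity of vimentin (VIM) was 12837 to 13991, that of the estrogen receptor gene ESR1 was 183 to 233 and that of the progesterone receptor gene PGR was 149 to 176. ERBB2, EPCAM, CDH1 and GATA3 were set as low in the line as well. EPCAM (352 to 437) and CDH1 (152 to 188) lay below 447, the middle of the array medians. ERBB2 (1442 to 1566) and GATA3 (507 to 745) lay above it. Of 11 markers of the line, CDH1 and GATA3, set as low, rose. CD44, EGFR and AXL, set as high, fell. The share that passed was 45.5%, beside 34.5% of all genes. Of 14 markers of leukocytes and endothelial cells, 13 missed the threshold and none was at the floor. CD68, a lysosomal protein that other cells also make, had a log2 change of -0.33 (limma adjusted p = 0.0186), and the summed intensity of the 14 markers was 13403 to 13834 in control and 10892 to 12291 in treated arrays. Without CD68 the sum of the other 13 was 4533 to 4635 in control and 4534 to 4638 in treated arrays.

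EC-70124 up-regulated 7 of the 43 ABC genes and down-regulated 9. This is 37.2% of the members, close to the 34.5% of all genes that passed the same test (19.7% up and 14.8% down). The median log2 change of the members was -0.05, beside 0.00 for all genes. A share this near the background is no result about the family as a whole. Both shares depend on how many dim genes are counted. Without the 30% dimmest genes, 16 of 24 members and 6148 of 12892 genes passed. The shares were not compared by a test. After quantile normalization the split was 5 up-regulated and 14 down-regulated members. Of all 18417 genes, 3112 were up-regulated and 3527 down-regulated after it, against 3631 and 2722 without it. The rises were those of ABCC9, ABCA10, ABCA5, ABCC2, ABCC3, ABCD4 and ABCF3, and the falls those of ABCA2, ABCA1, ABCA3, ABCC4, ABCC1, ABCB9, ABCB6, ABCD3 and ABCA4. Of the 43 members, 8 both passed the threshold and changed by at least 1.5-fold, beside 1780 of the 18417 genes (9.66%). The 4 of the 43 that passed and changed by 2-fold or more were ABCC9, ABCA10 and ABCA5 (up) and ABCA2 (down). Of all genes 497 did so (2.7%). At both limits the share was larger among the members than among all genes, a difference that was not tested. A t-test was also run here for each gene on log2 intensity, adjusted in the same way. It is called the methods' t-test below, since the study's methods name a t-test for scoring gene sets. With it, none of the 7 rises passed and 7 falls did. Of 18416 genes tested with it, 1962 passed as rises and 1280 as falls. In each of the 16 the control and treated intensities did not overlap. This also held for 9 of the 27 members that missed the threshold. Together 25 of the 43 members did not overlap, beside 8769 of the 18417 genes (47.6%). The RNA came from whole cultures, so that a change in every cell and a change in the share of cells with a transcript cannot be told apart.

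**Figure D1:**
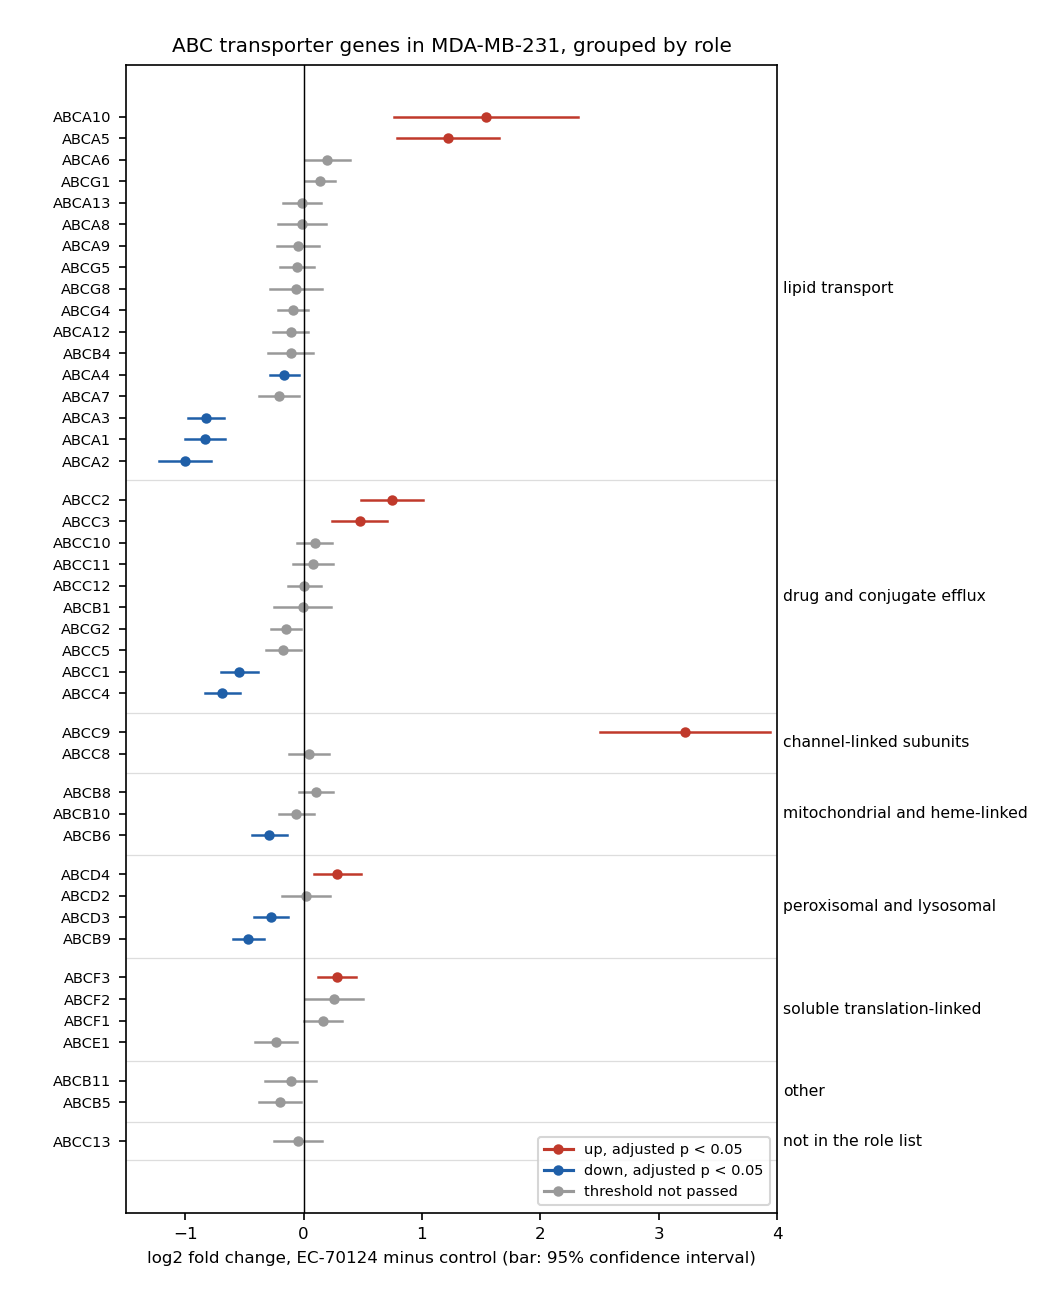
Log2 change (EC-70124 minus control, 3 arrays per group, x axis) of the 43 ABC genes (y axis), grouped by role, with points for the estimate and bars for the 95% confidence interval from limma. ABCC9 lies far to the right of the others at 3.22, and 27 gray members missed the threshold.

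ABCC9, the SUR2 subunit that gives muscle-type potassium channels their response to ATP and to channel openers, had the largest change of the family. Its intensity was 89.1, 89.5 and 99.4 in the control arrays and 619, 664 and 1566 in the treated arrays. All treated values stood above all controls, and replicate 3 stood above the other treated samples. The log2 change was 3.22 (SE 0.31, limma adjusted p = 0.000126), a 9.33-fold rise, and 2.79 without EC-70124 replicate 3. The methods' t-test gave an adjusted p of 0.071. ABCC9 is dim in control cells, and with an offset of 50 added to each intensity its log2 change was 2.69. In the RefSeq gene order its neighbour is KCNJ8, which encodes the pore that SUR2 joins. KCNJ8 missed the threshold. Its intensity was 323, 339 and 377 in control and 269, 297 and 341 in treated arrays, which overlap, with a log2 change of -0.20 with a 95% interval from -0.42 to 0.03 (limma adjusted p = 0.163). It passed as a fall without EC-70124 replicate 3 (log2 change -0.29, limma adjusted p = 0.0330) and with the replicate number as a block (adjusted p = 0.0430). The other pair of this kind, ABCC8 (SUR1) and its neighbour KCNJ11, missed the threshold on both sides. ABCC8 had a log2 change of 0.05, with a 95% interval from -0.12 to 0.21, and KCNJ11 one of -0.13, with an interval from -0.29 to 0.04.

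ABCA5 and ABCA10 belong to a run of 5 lipid transporter genes of the A subfamily that lie side by side on chromosome 17, in the order ABCA8, ABCA9, ABCA6, ABCA10, ABCA5. ABCA5 has been linked to lysosomes and cholesterol handling. Its intensity rose from 236, 263 and 211 to 696, 598 and 400, a log2 change of 1.22 (SE 0.19, limma adjusted p = 0.00135), with treated replicate 3 the lowest of its group. ABCA10 rose from 75.9, 61.7 and 55.9 to 136, 136 and 349, a log2 change of 1.54 (SE 0.34, limma adjusted p = 0.00807), with treated replicate 3 the highest. Without that replicate the log2 changes were 1.45 for ABCA5 and 1.09 for ABCA10. ABCA10 was dim in the control arrays (mean intensity 64.5), and with an offset of 50 added to each intensity its log2 change was 1.07. The methods' t-test gave an adjusted p of 0.0902 for ABCA5 and 0.174 for ABCA10. The same array was thus the lowest for one gene and the highest for its neighbour. The next gene in the run, ABCA6, had a log2 change of 0.20 with an interval from 0.02 to 0.39 (limma adjusted p = 0.0931), and passed without EC-70124 replicate 1 (0.28, limma adjusted p = 0.0275). ABCA9 had -0.05 with an interval from -0.22 to 0.13, and ABCA8 had -0.01 with an interval from -0.21 to 0.19. The difference between neighbours was not tested, and the 5 genes are close relatives for which shared probe sequence was not tested either.

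**Figure D2:**
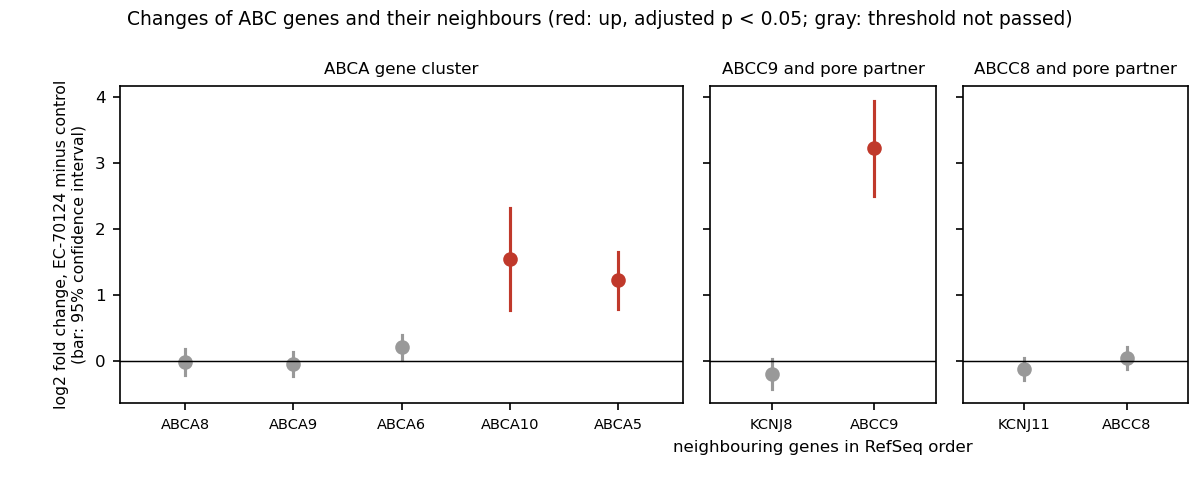
Log2 change (EC-70124 minus control, y axis, bars for the 95% confidence interval from limma) of neighbouring genes in RefSeq order (x axis): the ABCA run, ABCC9 with KCNJ8, and ABCC8 with KCNJ11. In the run only ABCA10 (1.54) and ABCA5 (1.22) are red, the color of an up-regulated gene, and ABCC9 (3.22) stands beside a KCNJ8 at -0.20.

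The other 15 lipid transporters held the largest falls. ABCA1, which exports cholesterol to apolipoprotein A-I, had intensities of 287, 314 and 287 in control and 169, 178 and 152 in treated arrays, a log2 change of -0.83 (SE 0.07, limma adjusted p = 8.4e-05). ABCG1, which passes cholesterol on to HDL and shares the LXR receptors with ABCA1 as regulators, missed the threshold. Its intensities of 172, 177 and 170 in control lay below those of 190, 185 and 196 in treated arrays, a log2 change of 0.14 (limma adjusted p = 0.0834). ABCA2, a transporter of late endosomes and lysosomes, went from 2225, 2562 and 2169 to 1217, 1237 and 1019, or 0.499 of the control level (95% interval of the log2 change from -1.23 to -0.78, limma adjusted p = 0.000121). ABCA3, which loads surfactant lipids into lamellar bodies in the lung, went from 1709, 1856 and 1599 to 963, 959 and 988, a log2 change of -0.83 (limma adjusted p = 5.4e-05). The treated values of ABCA3 lay closer together than its controls, whereas treated replicate 3 was the lowest array for ABCA1 and ABCA2. ABCA4, the flippase of retinal photoreceptors, passed narrowly, from 296, 292 and 310.1 to 266, 266 and 272, a log2 change of -0.16 (limma adjusted p = 0.0471). It missed the threshold in 10 of its 14 alternatives. Such counts for single genes leave out the setting that also requires a 1.5-fold change. ABCA7, a relative of ABCA1, had -0.21 (limma adjusted p = 0.0592) and passed in 3 of 15 alternatives. The remaining members of this group, ABCA12, ABCA13, ABCB4, ABCG4, ABCG5 and ABCG8, had log2 changes from -0.11 to -0.01 and missed the threshold.

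The stretches before the starts of the genes with the 3 largest rises and the 3 largest falls are shown, in every window RefSeq gives for them. Each is the 250 bases before a RefSeq start, 5′ to 3′ on the gene's strand, in build GRCh38.p14, and capitals mark a match to one of the motifs listed after them.
ABCC9 promoter, chr12:21941427-21941676, minus strand: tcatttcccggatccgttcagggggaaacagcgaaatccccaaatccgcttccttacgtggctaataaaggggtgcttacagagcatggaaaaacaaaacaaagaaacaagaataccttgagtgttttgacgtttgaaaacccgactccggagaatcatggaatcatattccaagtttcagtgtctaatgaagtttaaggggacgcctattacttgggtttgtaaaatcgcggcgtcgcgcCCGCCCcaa
ABCA10 first promoter, chr17:69228825-69229074, minus strand: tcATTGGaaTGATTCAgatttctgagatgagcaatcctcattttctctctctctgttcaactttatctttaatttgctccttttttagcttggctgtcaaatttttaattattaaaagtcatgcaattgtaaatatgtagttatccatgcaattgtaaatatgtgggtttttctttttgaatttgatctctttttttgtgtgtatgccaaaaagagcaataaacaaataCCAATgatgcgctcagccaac
ABCA10 second promoter, chr17:69244849-69245098, minus strand: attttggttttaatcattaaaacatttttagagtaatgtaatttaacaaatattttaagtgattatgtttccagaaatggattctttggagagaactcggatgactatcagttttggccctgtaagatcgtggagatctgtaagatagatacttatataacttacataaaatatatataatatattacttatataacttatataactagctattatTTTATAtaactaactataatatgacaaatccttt
ABCA5 promoter, chr17:69327134-69327383, minus strand: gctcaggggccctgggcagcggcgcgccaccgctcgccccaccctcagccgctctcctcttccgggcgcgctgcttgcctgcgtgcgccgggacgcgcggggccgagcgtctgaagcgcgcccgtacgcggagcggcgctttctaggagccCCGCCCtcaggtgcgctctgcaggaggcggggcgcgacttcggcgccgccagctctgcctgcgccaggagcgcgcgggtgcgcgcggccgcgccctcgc
ABCA2 first promoter, chr9:137028238-137028487, minus strand: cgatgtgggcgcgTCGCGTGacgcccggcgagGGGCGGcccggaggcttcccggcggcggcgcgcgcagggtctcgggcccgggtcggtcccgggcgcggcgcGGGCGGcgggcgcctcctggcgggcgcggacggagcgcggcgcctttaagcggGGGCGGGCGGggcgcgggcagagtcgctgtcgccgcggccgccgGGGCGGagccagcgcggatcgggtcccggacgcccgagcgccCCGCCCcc
ABCA2 second promoter, chr9:137028923-137029172, minus strand: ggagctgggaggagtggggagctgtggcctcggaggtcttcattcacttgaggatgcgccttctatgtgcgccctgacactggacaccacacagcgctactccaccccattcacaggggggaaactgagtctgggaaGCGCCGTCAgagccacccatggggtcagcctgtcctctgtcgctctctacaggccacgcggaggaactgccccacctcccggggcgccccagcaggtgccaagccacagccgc
ABCA1 promoter, chr9:104928156-104928405, minus strand: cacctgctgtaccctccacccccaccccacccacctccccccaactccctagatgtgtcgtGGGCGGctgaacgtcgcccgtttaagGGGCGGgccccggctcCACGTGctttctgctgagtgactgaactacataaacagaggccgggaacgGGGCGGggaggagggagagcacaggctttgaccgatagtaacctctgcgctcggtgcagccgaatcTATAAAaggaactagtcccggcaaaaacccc
ABCA3 promoter, chr16:2340729-2340978, minus strand: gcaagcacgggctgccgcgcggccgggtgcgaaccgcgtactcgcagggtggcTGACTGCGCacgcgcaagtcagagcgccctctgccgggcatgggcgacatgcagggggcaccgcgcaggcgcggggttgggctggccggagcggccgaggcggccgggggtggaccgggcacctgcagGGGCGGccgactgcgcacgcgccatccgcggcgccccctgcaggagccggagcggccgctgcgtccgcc
The motifs were searched on both strands, and N stands for any base. The ATF4 and C/EBP element was TTNCATCA, the antioxidant response core TGACNNNGC and the cAMP response element TGACGTCA. The TATA box was searched as TATAAA, and the direct repeat bound by LXR was searched too. In the windows shown, the capitals of ABCC9 and ABCA5 are a GC box and those of the second ABCA10 window a TATA box. The first ABCA10 window holds an AP-1 site between CCAAT boxes. The first ABCA2 window holds the aryl hydrocarbon receptor core and several GC boxes, of which a pair overlap, and the second the antioxidant response core. ABCA1 holds an E-box, a TATA box and GC boxes, and ABCA3 holds the antioxidant response core and a GC box. TATA boxes were in 10.7% of all windows. The GC box, searched as GGGCGG, was in 42.6% of the windows of all genes. The CCAAT box, which carries its letters in its name, was in 32.0% of them. The AP-1 site, TGANTCA, was found in 6.57% of the windows of all genes. The aryl hydrocarbon receptor core, TNGCGTG, was found in 4.52% of them. The cAMP response element was in 1 member's window, of a gene that missed the threshold, and in 1.65% of all. Windows were found for 34 of the 43 members, 51 windows in all, 7 of genes that rose and 10 of genes that fell. The members without a window were ABCA4, ABCA8, ABCB4, ABCB5, ABCC1, ABCC3, ABCC8, ABCC13 and ABCG1. The antioxidant response core was in 5 of the 10 windows of genes that fell (ABCA2, ABCA3, ABCB6, ABCB9 and ABCC4), in 1 of the 7 of genes that rose (ABCD4), in 3 of the 34 of members that missed the threshold and in 10.9% of all 35116 windows. The E-box, CACGTG, was in 3 windows of genes that fell (ABCA1, ABCB6 and ABCB9), in 6 of the 34 windows of members that missed the threshold, in 0 of those that rose and in 6.34% of all. The ATF4 and C/EBP element was in no window of a gene that changed and in 3.14% of all, and the LXR repeat in no member's window and in 0.0142% of all. The median GC content was 46.0% for windows of genes that rose and 70.4% for those of genes that fell, against 58.0% for all windows. The windows of genes that rose ran from 23.6% to 79.2%, and both ABCA10 windows are counted. Those of genes that fell ran from 60.8% to 85.6%. Windows of 1 gene are not independent, and the difference was not tested. A match is a run of letters and not a bound site.

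Among the 10 drug and conjugate efflux pumps, 2 rose and 2 fell, a share of 40.0% that is near the 34.5% of all genes. ABCC2 (MRP2), which exports glutathione and glucuronide conjugates, had intensities of 271, 305 and 279 in control and 464, 413 and 567 in treated arrays, a log2 change of 0.75 (SE 0.11, limma adjusted p = 0.00123). ABCC3 (MRP3), a pump of the same kind on the basal side of epithelia, went from 680, 801 and 654 to 1030, 1064 and 875, a log2 change of 0.48 (limma adjusted p = 0.00696). ABCC4 (MRP4), which exports cyclic nucleotides and prostaglandins, went from 1219, 1293 and 1264 to 739, 773 and 837, a log2 change of -0.69 (SE 0.06, limma adjusted p = 0.000107). ABCC1 went from 3007, 3147 and 2902 to 2166, 2137 and 1915, a log2 change of -0.54 (SE 0.07, limma adjusted p = 0.000450). Treated replicate 3 was the highest of its group for ABCC2 and ABCC4 and the lowest for ABCC3 and ABCC1. The methods' t-test gave an adjusted p of 0.0791 for ABCC2 and 0.0769 for ABCC3.

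The pumps ABCB1 and ABCG2 missed the threshold. ABCB1 had intensities of 242, 217 and 197 in control and 191, 242 and 221 in treated arrays, which overlap fully. Its log2 change was -0.01 with a 95% interval from -0.25 to 0.23. ABCG2 had 408, 395 and 400.0 in control and 352, 355 and 377 in treated arrays, which do not overlap. Its log2 change was -0.15, with an interval from -0.28 to -0.02 (limma adjusted p = 0.0670), and it passed in 3 of 15 alternatives. ABCC5 had -0.17 (limma adjusted p = 0.0755), and ABCC10, ABCC11 and ABCC12 had 0.09, 0.08 and 0.01. None of the 5 measured members of the G subfamily passed in limma, and 2 of them had an unadjusted p under 0.05. Among all genes 34.5% passed, and 5 genes are too few for a result about the subfamily. For each of the 27 members that missed the threshold, the 95% interval lay within a 1.5-fold change in either direction. Many of them are dim, and the mean control intensity of ABCB1 (219) was close to that of ESR1 (225). Without a background measure, a narrow interval of a dim gene cannot show that its transcript stayed level.

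**Figure D3:**
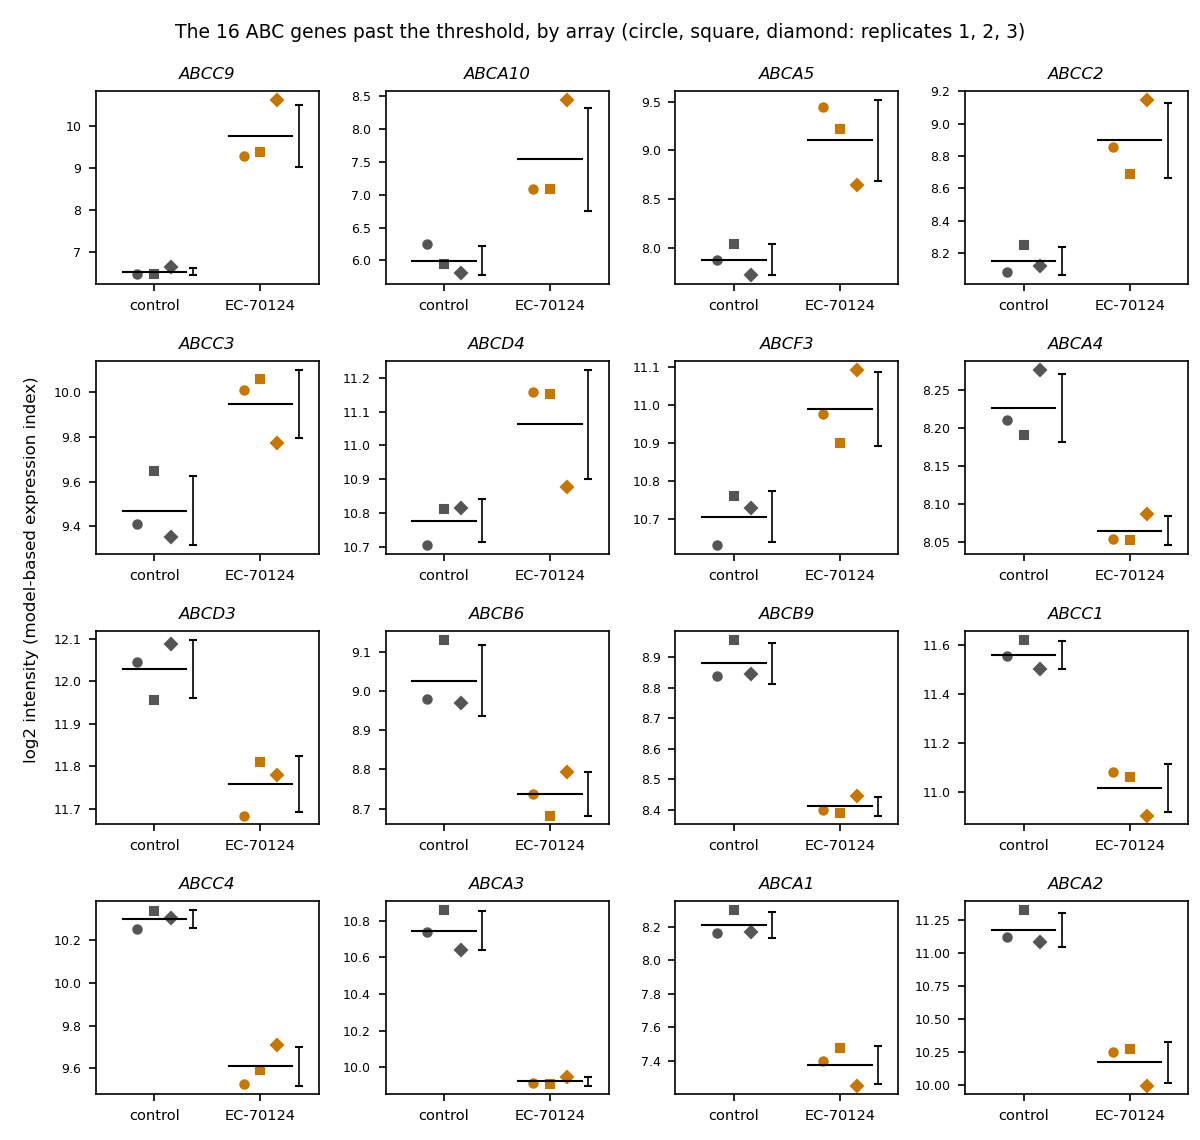
Log2 intensity (y axis, each panel on its own scale) in each array of the 16 ABC genes that passed the threshold, ordered from the largest rise to the largest fall, with control in gray and EC-70124 in orange. Horizontal lines are means, bars are SD over 3 arrays, symbols mark the replicate number, and in every panel the groups do not overlap.

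Of the 3 mitochondrial and heme-linked members, 1 fell (33.3%). Of the 4 peroxisomal and lysosomal members, 1 rose and 2 fell (75.0%). Among all genes 34.5% passed, and sets this small give no result about a group. ABCB9, a peptide transporter of lysosomes, fell from intensities of 458, 496 and 460 to 338, 335 and 349, a log2 change of -0.47 (SE 0.06, limma adjusted p = 0.000421). ABCB6, which has been tied to porphyrin transport, went from 505, 560.1 and 501 to 427, 411 and 444, a log2 change of -0.29 (limma adjusted p = 0.00946), and the methods' t-test gave an adjusted p of 0.0642. ABCD3, which brings branched-chain and other acyl-CoAs into peroxisomes, went from 4225, 3971 and 4351 to 3292, 3592 and 3515, a log2 change of -0.27 (limma adjusted p = 0.0102). ABCD4, which takes part in the export of vitamin B12 from lysosomes, rose from 1670, 1800.3 and 1803 to 2282, 2277 and 1881, a log2 change of 0.28 (limma adjusted p = 0.0341), with treated replicate 3 next to the controls. The call for ABCD4 was lost in 9 of 15 alternatives. ABCD2 and the mitochondrial ABCB10 and ABCB8 had log2 changes of 0.02, -0.06 and 0.11 and missed the threshold. For ABCB8 2 further probe sets had log2 changes of -0.11 and 0.10, which missed the threshold too (limma adjusted p = 0.236 and 0.450 over all probe sets). ABCB5 and the bile salt pump ABCB11 had -0.20 and -0.11, and the pseudogene ABCC13 had -0.05, with none past the threshold.

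Of the 4 members without a membrane domain, 1 passed (25.0%), beside 34.5% of all genes, and so small a set gives no result about the group. ABCF3, 1 of 3 ABCF proteins tied to translation, rose from 1584, 1734 and 1695 to 2013, 1910 and 2181, a log2 change of 0.28 (SE 0.07, limma adjusted p = 0.0131), and the call was lost in 3 of 15 alternatives. ABCF1, which binds initiation factor eIF2, and ABCF2 had log2 changes of 0.16 and 0.25 (limma adjusted p = 0.111 and 0.106). The 3 probe sets of ABCF1 hold the same values in all arrays and count as 1. ABCE1, which splits ribosomes after termination, had 4789, 4914 and 4833 in control and 3968, 3818 and 4635 in treated arrays, a log2 change of -0.23 (limma adjusted p = 0.0524). The treated values of ABCE1 lay below all controls, with replicate 3 nearest to them, and without that array the log2 change was -0.32 (limma adjusted p = 0.00282).

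Genes that work with ABC proteins were read from 8 lists. Of 103 measured genes, 27 rose and 30 fell, with a median log2 change of -0.01. This is 55.3% of them, where 34.5% of all genes passed (19.7% up and 14.8% down). Without any 1 of the 3 control arrays 19 fell, and with the methods' t-test 13 fell. Of all genes, 1280 fell with that t-test, against 2722 in the limma fit. The share of all genes depends on how many dim genes it counts. Without the 30% dimmest, 6148 of 12892 genes passed, a larger share than 34.5%. The lists were also chosen with earlier results of these data known, so their shares are no result about the partners. Of 3 ABC genes with other symbols, 1 passed. TAP2, a chain of the peptide pump that feeds MHC class I, had -0.29 (limma adjusted p = 0.0115), its partner chain TAP1 had 0.01 with an interval from -0.27 to 0.30, and the chloride channel gene CFTR had 0.01. Of 11 further genes of antigen peptide loading, 2 rose and 5 fell, with 1.36 for the tapasin-related TAPBPL, 0.79 for the peptidase ERAP2 and -0.50 for the immunoproteasome subunit PSMB9, a share of 63.6%. PSMB9 passed in 10 of 15 alternatives, and missed the threshold without any 1 of the 3 control arrays. Of 12 LXR factors and sterol efflux genes, 2 rose and 5 fell, or 58.3%. The falls were led by the HDL receptor SCARB1 (-0.78), the phospholipid-remodelling enzyme LPCAT3 (-0.61) and NPC1 (-0.60), which frees cholesterol from lysosomes.

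Of 26 genes of xenobiotic sensing and glutathione conjugation, 5 rose and 7 fell, or 46.2% where 34.5% of all genes passed. CYP1A1 and CYP1B1, P450 enzymes induced through the aryl hydrocarbon receptor, had the largest rises of this list. CYP1A1 went from intensities of 413, 489 and 451 to 2312, 2100 and 1458, a log2 change of 2.09 (limma adjusted p = 4.1e-05), and CYP1B1 had 1.09. NFE2L2, which encodes the oxidative stress factor NRF2, had 0.59. Of 15 genes of peroxisomal import and beta oxidation, 5 rose and 5 fell, with 0.60 for the thiolase ACAA1, 0.53 for PEX10 and 0.51 for PEX3. Of 16 ribosome recycling and initiation partners of ABCE1 and the ABCF proteins, 6 rose and 3 fell, with 0.62 for DENR, 0.47 for EIF3J and 0.40 for EIF2S2. Of 18 genes of iron-sulfur and heme synthesis, 7 rose and 4 fell, with -0.70 for the iron importer SLC25A37, 0.54 for SLC25A38 and 0.51 for UROS. The shares that passed were 66.7%, 56.2% and 61.1% for the last 3 lists. With the methods' t-test the calls of SCARB1, TAP2, PSMB9, ACAA1, PEX10 and NFE2L2 were lost. The median log2 changes of the 4 lists in this paragraph were -0.01, 0.03, 0.18 and 0.03, beside 0.00 for all genes.

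**Figure D4:**
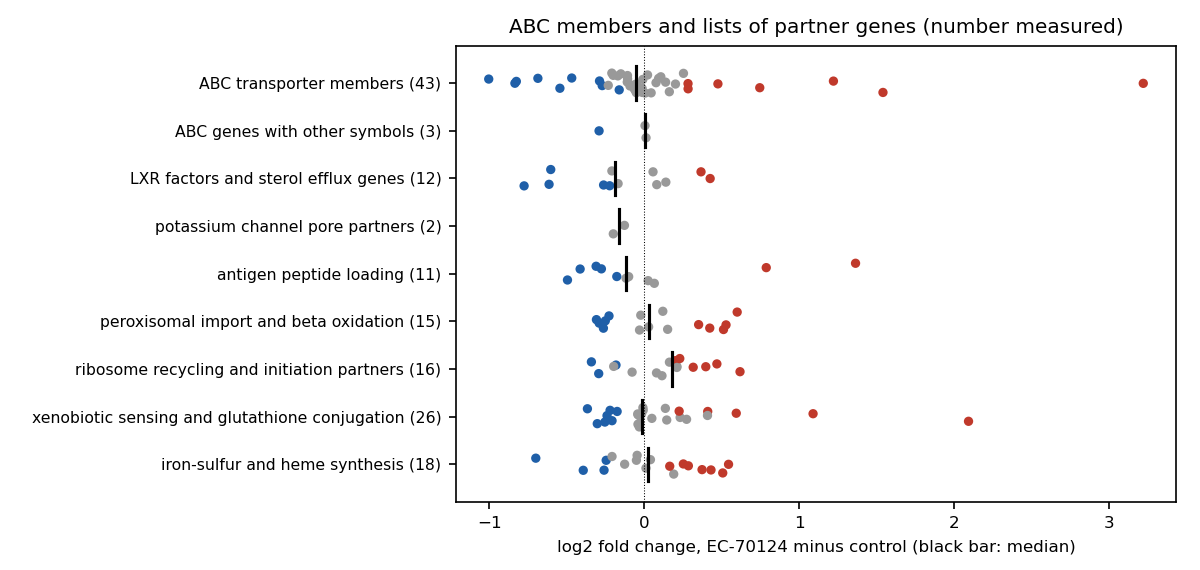
Log2 change (EC-70124 minus control, x axis) of the 43 ABC genes and of 8 lists of partner genes (y axis, number measured in parentheses). Each point is 1 gene, red or blue where it was up- or down-regulated and gray otherwise, black bars are medians, and CYP1A1 (2.09) is the farthest point of the lists.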

How the data were processed

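3 untreated and 3 EC-70124 samples (500 nM, 24 h) were grouped by the sample titles. The authors read the scans with dChip, which matched the arrays on probes of invariant rank and fitted a model-based index per probe set, and they deposited these intensities on a linear scale. Its version and background correction: not given in the sources used here. Column medians were 437 to 444 in control and 451 to 460.1 in treated arrays. Intensities under 1 became 1 before log2. Of 33252 probe sets, 19460 carry 1 symbol, and each gene was read from its brightest probe set by the mean of 6 arrays, giving 18417 genes. The Entrez identifiers changed 0 symbols. The test was the moderated model of limma 3.58.1 (lmFit, eBayes; R 4.3.3), 2-sided, with Benjamini-Hochberg adjustment over all genes at 0.05 and 95% intervals. With 3 against 3 arrays, an exact permutation test has 0.1 as its smallest p. The steps were tested on simulated data. The study's methods call the samples independent. A comparison of member proteins was not made here.

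Genes were named by a rule: every member past the threshold, 11 members set by name, members with several probe sets, the 5 largest changes that missed, 5 partners set by name and up to 3 genes per further list. The other members are named for completeness. Members and lists were chosen with earlier results of these data known. Promoter windows came from RefSeq, and the motifs were picked after the values were seen. Alternatives covered 2 normalizations, an offset of 50, the 30% dimmest genes, the choice of probe set, the variance model and the methods' t-test. Further ones were a 1.5-fold limit, the replicate number as a block and leaving out each array. The t-test, named in the study's methods as gene-set scoring metric, was run here per gene on log2 intensity with unequal variances. Counts of alternatives for single genes leave out the 1.5-fold limit.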

Additional observations from a re-analysis of the deposited data

How the results depend on the processing

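The number of arrays, 3 per group, limits the precision, and the dimmest members may sit near background. Most counts of members stayed within 1.5 times the reported 7 rises and 9 falls. With the methods' t-test, 0 rises were left (6 had an unadjusted p under 0.05) beside 7 falls. In the partner lists 19 rises and 13 falls were left, and among 18416 genes 1962 rises and 1280 falls. After quantile normalization, which moved the median of all genes from 0.00 to -0.05, 5 members rose and 14 fell. Among all genes 3112 then rose and 3527 fell. In the main fit, with a change of at least 1.5-fold required as well, 4 members rose and 4 fell (9.66% of all genes passed that limit). Leaving out 1 array gave 5 to 7 rises and 8 to 11 falls among the members, and 19 to 32 falls and 23 to 29 rises among partner genes. The 19 came without any 1 of the 3 control replicates. ABCF3 lost its call without control replicate 1 (limma adjusted p = 0.0581) and after quantile normalization. ABCA10 moved from a log2 change of 1.54 to 1.09 without EC-70124 replicate 3. With the replicate number as a block, 7 members rose and 9 fell, with ABCA4 lost and ABCB5 gained. Deviations of same-numbered arrays correlated at 0.127, -0.0225 and 0.136 across genes. Those of arrays with unlike numbers ran from -0.218 to 0.149, and treated replicate 1 correlated best with control replicate 2. With so few arrays these values cannot decide whether the numbers pair the samples. No member's called change turned its direction under any alternative run. Without the 30% dimmest genes ABCA1, ABCA4, ABCA10 and ABCC9 were not tested. The cause of these differences was not tested.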

Other observations

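Pseudogenes named after ABC genes fall outside the symbol rule and were looked at after the data were seen. ABCA11P had intensities of 184, 186 and 161 in control and 479, 404 and 615 in treated arrays, a log2 change of 1.48 (SE 0.14, limma adjusted p = 0.00012). ABCA15P had a log2 change of 0.15 (limma adjusted p = 0.292), and its groups overlapped.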
